A study of Homo sapiens with 3 samples.

Results

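The matrix metalloproteinases (MMPs) and tissue inhibitors of metalloproteinases (TIMPs) described here were 10 genes: MMP1, MMP2, MMP7, MMP9, MMP10, MMP12, MMP14, MMP19, TIMP1, and TIMP3. They were chosen by name and read from every transcript probe that carries one of these gene names, which gave 11 of the 58201 probes on the array. MMP19 had 2 probes, the other genes had 1 probe each, and the MMP1 probe was printed in 10 spots. RNA came from THP-1, a human monocytic leukemia cell line that the phorbol ester PMA (100 ng/ml) turned into macrophage-like cells in all 3 groups. The untreated group (Ctrl) was left as it was, the IMQ group was activated with imiquimod, an agonist of toll-like receptors, and the last group received DMD, a benzenoid from the fungus Antrodia cinnamomea, before IMQ (IMQ+DMD). The labels write this group as IMQ+X, and DMD is the only other compound that the title and the treatment protocol name. The labels give 4 h for each group and no dose, whereas the methods of the study give a longer incubation for its THP-1 experiments in general. There was 1 array per condition, so the differences below carry no p-value and were not checked in a second culture.

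MMPs are zinc endopeptidases that cut collagens, laminins, elastin, and other proteins of the extracellular matrix, and they release or inactivate cytokines and chemokines. Most are secreted as inactive proenzymes, which plasmin, other proteases, or other MMPs activate, and TIMPs bind the active enzymes and block them. Macrophages are a source of gelatinase B (MMP9) and macrophage elastase (MMP12), and inflammatory signals change the transcription of several MMP genes.

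The values are the fluorescence of Cy3-labeled RNA on probes of 60 bases, quantile normalized over the 3 arrays and given as linear normalized intensity in arbitrary units. Probes differ in how well they bind, so the intensity of a gene is compared between arrays and not with that of another gene. Each of the 11 probes was rated well above background on every array, and no spot of them had saturated pixels. Noise within an array was taken from 300 probes with 10 spots each, and a noise SD below is the SD of a log2 difference between arrays expected from that noise at the same brightness and number of spots. For MMP9 too few of these probes were as bright, and its noise SD was taken from dimmer ones. The noise SD does not cover differences between cultures or RNA preparations. The IMQ array was the dimmest before normalization, with 66.6% of the probes well above background and a median processed intensity of 61.8, compared with 72.0% and 94.5 for Ctrl and 71.9% and 76.4 for IMQ+DMD.

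The 10 macrophage and monocyte markers compared, of 12 listed, reached the well-above-background rating on each array, and CD68 and LYZ were not analysed here. Their summed normalized intensity was 666051 in Ctrl, 554265 in IMQ, and 535613 in IMQ+DMD, and TYROBP was the brightest (237219, 223150, and 227349). From IMQ to IMQ+DMD, 6 of the 10 were higher, with a median log2 difference of 0.02. With scaling to the 75th percentile, 1 of the 10 was higher, with a median of -0.17. After IMQ, 9 of these 10 markers were lower, with a median log2 difference of -0.34, beside -0.01 over all probes, and the scavenger receptor CD163 was lower by more than 2-fold (-1.22), as were 3.48% of all probes. The median of the markers was -0.15 with scaling to the 75th percentile (8 of 10 lower). All 10 were lower without normalization and with spike-in scaling, with medians of -0.60 and -0.78, where the median of the probes well above background on all 3 arrays was -0.49 and -0.67. The part of this shift in the MMP values was not tested. In RNA from a whole culture, fewer cells of a type and less RNA per cell cannot be told apart. Markers of other cell types were partly above background as well. On all 3 arrays, 4 of 7 fibroblast markers (COL1A1, DCN, PDGFRA, and PDGFRB), 3 of 6 epithelial markers (KRT1, KRT10, and KRT14), 3 of 4 endothelial markers (VWF, CDH5, and KDR), 3 of 4 neutrophil markers (MPO, ELANE, and AZU1), and all 6 markers of T and B cells were well above it. COL1A2, COL3A1, and LUM of fibroblasts, EPCAM and CDH1 of epithelium, and CEACAM8 of neutrophils were not well above it on any array. The brightest were KRT10 (18750 in Ctrl, 17724 in IMQ, and 18069 in IMQ+DMD) for epithelium, AZU1 (15676, 16790, and 18251) for neutrophils, CD79A (4148, 3424, and 4011) for lymphocytes, and VWF (404, 353, and 343) for endothelium. KRT5 of epithelium gave 39.9 in Ctrl, 17.7 in IMQ, where it was not well above background, and 51.4 in IMQ+DMD. It was at least 2.16-fold higher in IMQ+DMD than in IMQ, and past 2-fold in 5 of the 6 scalings. The summed intensity of the 7 fibroblast markers was 778 in Ctrl, 493 in IMQ, and 476 in IMQ+DMD, with PDGFRA the brightest (538, 253, and 222). PDGFRA was past 2-fold between IMQ and Ctrl as reported (-1.09) and in 5 of the 6 scalings, with -0.95 in the other. Summed intensities in the order of Ctrl, IMQ, and IMQ+DMD were 18894, 17842, and 18242 for epithelium, 827, 803, and 776 for endothelium, 18010, 19307, and 20880 for neutrophils, and 5260, 4328, and 5109 for T and B cells. From IMQ to IMQ+DMD, 4 of 4 epithelial markers compared were higher, 5 of 6 of T and B cells, 2 of 3 of neutrophils, 1 of 4 of fibroblasts, and 1 of 3 of endothelium. Of all probes, 48.6% were higher in this comparison. The part of these markers in the MMP values was not tested.

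After IMQ, MMP19, MMP10, and the inhibitor TIMP3 were higher by at least 2-fold than in the Ctrl macrophages, and none of the 10 genes was lower by that factor. Against this 3 of 10, 4.31% of all 41107 probes compared were at least 2-fold higher and 3.48% at least 2-fold lower. The count of 3 fell to 2 with normexp correction, and to 1 (MMP19) without normalization and with spike-in scaling. In the same order, 1.73%, 1.71%, and 1.34% of all probes were at least 2-fold higher. The other 7 genes, among them MMP9 and TIMP1, differed by log2 values of -0.26 to 0.39. The median over the 10 genes was 0.23, beside -0.01 over all probes, and it was -0.026 without normalization between arrays and -0.20 with scaling to spike-in probes. In the same order, the median of the probes well above background on all 3 arrays was -0.49 and -0.67 with those 2 scalings. The median of the 10 genes lay above these values, whereas MMP2 lay below them, at -0.80 and -0.98.

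In the IMQ+DMD macrophages, none of the 10 genes was higher or lower by at least 2-fold than after IMQ. Of all 40829 probes compared, 1.09% were at least 2-fold higher and 1.31% at least 2-fold lower. TIMP3 was the farthest from IMQ, with 1.49-fold less intensity, and 8 of the 10 genes were lower, of which MMP2 and MMP7 turned higher with spike-in scaling. Of all probes, 48.6% were higher in this comparison. The count of lower genes followed the scaling, with 10 of 10 at the 75th percentile and without normalization, and 6 of 10 with spike-in scaling. The median over the 10 genes was -0.24, beside -0.01 over all probes, and it was -0.050 with scaling to spike-in probes, where the median of the probes well above background on all 3 arrays was 0.26. Compared with Ctrl, MMP19 alone among the 10 genes was at least 2-fold higher in the IMQ+DMD macrophages, where 3.09% of 43692 probes were at least 2-fold higher and 4.91% at least 2-fold lower. The 3 comparisons share arrays and are not independent of each other, because the IMQ array enters the first and the second and the Ctrl array the first and the third.

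**Figure D1:**
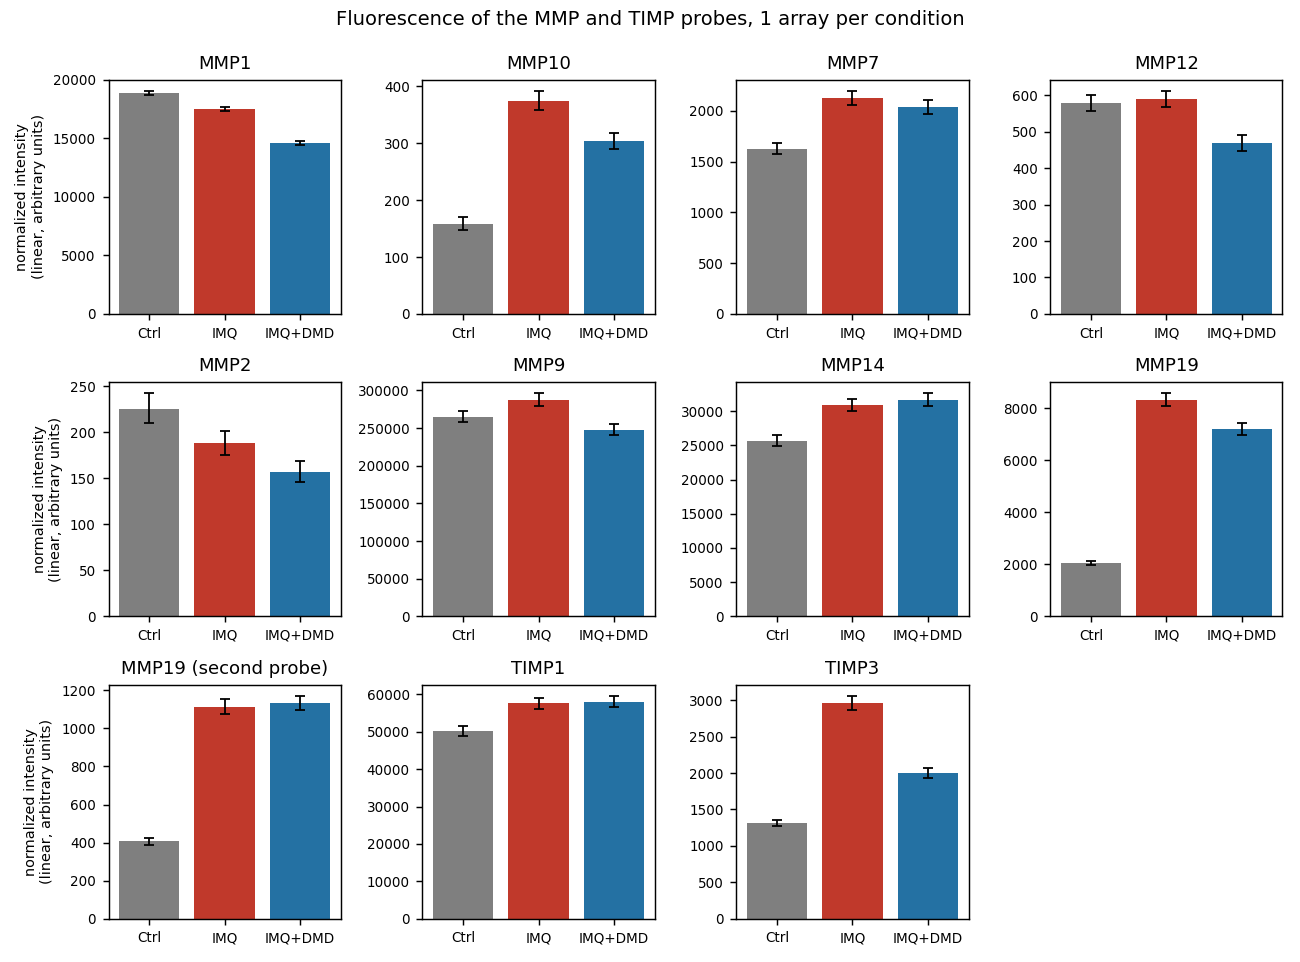
Normalized intensity (linear, arbitrary units) of each MMP and TIMP probe on the Ctrl, IMQ, and IMQ+DMD arrays, with each bar 1 array, each panel its own scale, and error bars of 1 SD of the noise within an array. Both MMP19 probes, MMP10, and TIMP3 were more than 2-fold brighter on the IMQ array than on the Ctrl array, and TIMP3 came down from 2964 to 1995 in IMQ+DMD.

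**Figure D2:**
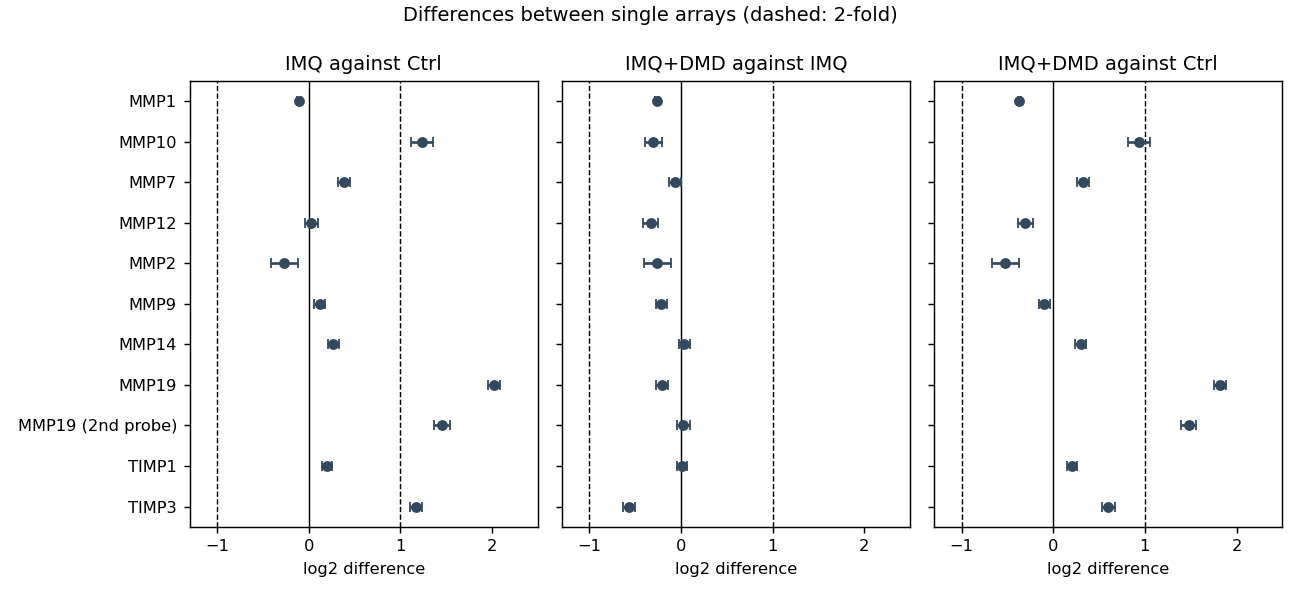
Log2 difference of normalized intensity between single arrays for each probe in the 3 comparisons, with error bars of 1 noise SD and dashed lines at 2-fold. The MMP19 probes (2.03 and 1.45), MMP10 (1.24), and TIMP3 (1.17) lie beyond the line in IMQ against Ctrl, and every probe lies within the lines in IMQ+DMD against IMQ.

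Promoter sequence is shown for the members that were at least 2-fold higher after IMQ and have an entry in the RefSeq promoter table, for MMP7 as a neighbour of MMP10 on chromosome 11, and for TFPI2, an inhibitor described further on. The table matched 5 of the 10 genes (MMP7, MMP10, MMP14, TIMP1, and TIMP3) by symbol. Each line gives the 160 bases before the annotated start, 5′ to 3′ on the strand of the gene (GRCh38.p14), and capitals mark matches to AP-1, NF-κB, or TATA box letters.
MMP10: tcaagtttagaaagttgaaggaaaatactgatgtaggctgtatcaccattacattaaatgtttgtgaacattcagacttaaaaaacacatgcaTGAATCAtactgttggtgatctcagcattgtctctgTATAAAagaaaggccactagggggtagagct
MMP7: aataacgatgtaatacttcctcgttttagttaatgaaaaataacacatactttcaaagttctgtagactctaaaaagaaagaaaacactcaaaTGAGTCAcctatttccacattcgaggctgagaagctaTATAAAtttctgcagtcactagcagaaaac
TFPI2: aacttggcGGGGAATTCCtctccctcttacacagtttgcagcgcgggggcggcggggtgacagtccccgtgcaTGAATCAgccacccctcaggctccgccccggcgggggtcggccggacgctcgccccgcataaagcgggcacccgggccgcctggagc
TIMP3: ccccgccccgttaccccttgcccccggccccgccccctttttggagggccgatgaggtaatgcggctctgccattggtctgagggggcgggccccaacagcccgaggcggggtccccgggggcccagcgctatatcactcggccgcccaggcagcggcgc
These lie at chr11:102780629-102780788 (minus strand) for MMP10, chr11:102530748-102530907 (minus) for MMP7, chr7:93890754-93890913 (minus) for TFPI2, and chr22:32801545-32801704 (plus) for TIMP3. The AP-1 letters TGANTCA, searched on both strands, were found as TGAATCA at position -67 from the start of MMP10, as TGAGTCA at -67 in MMP7, and as TGAATCA at -87 in TFPI2. Of the 35116 promoter windows of 300 bases in the table, 7.71% held these letters. TATAAA on the strand of the gene lay at -31 in MMP10 and -30 in MMP7, and 7.33% of all windows held it. An NF-κB consensus, GGGGAATTCC, lay at -152 in TFPI2, and 11.3% of all windows held a match on either strand. The letters AGGAAG of the PEA3 (ETS) element, searched on both strands and present in 33.6% of the windows, were found at -169 and -145 in MMP7 and at -87 in TIMP1, and the TIMP3 and MMP14 windows held none of the motifs searched. MMP10 and MMP7 have AP-1 and TATA letters at nearly the same positions, and their log2 differences after IMQ were 1.24 and 0.39. A match describes the letters of a window only.

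MMP1, the interstitial collagenase, was read at chr11:102660697-102660756 (hg19, as the scanner files give it). Its normalized intensity was 18878 in Ctrl, 17525 in IMQ, and 14605 in IMQ+DMD, so it was highest without treatment and lowest with IMQ+DMD. The log2 difference between IMQ and Ctrl was -0.11 (noise SD 0.019), and it turned to 0.03 with scaling to the 75th percentile. Between IMQ+DMD and IMQ it was -0.26 (noise SD 0.019), and it ranged from -0.46 to -0.17 over the alternatives tried. MMP1 was the one member with many spots on each array, which shows the precision of a single hybridization. Before normalization, its 10 spots lay between 20956 and 23187 in Ctrl, between 15503 and 17331 in IMQ, and between 11955 and 13468 in IMQ+DMD. The coefficient of variation was 3.71%, 3.37%, and 2.98% in the same order. The spots of the 3 arrays did not overlap in these unnormalized values, which include the difference in overall brightness between the arrays, and the drop of MMP1 between Ctrl and IMQ was smaller after normalization.

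**Figure D3:**
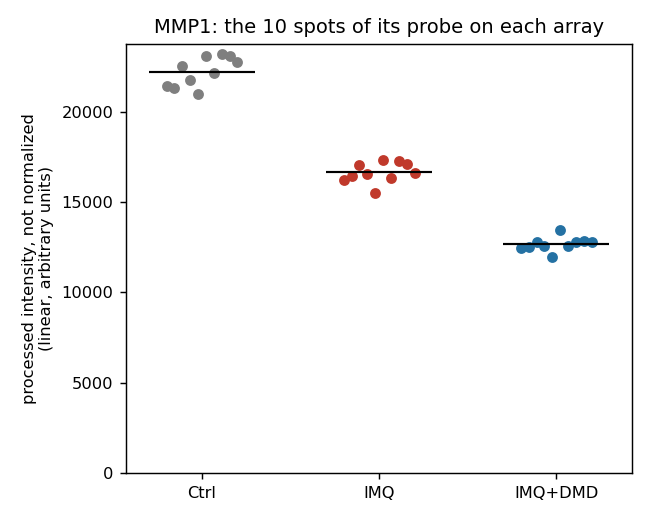
Processed intensity (linear, arbitrary units, not normalized between arrays) of the 10 MMP1 spots on each array, with points for spots and lines for the means. The means were 22224 in Ctrl, 16636 in IMQ, and 12671 in IMQ+DMD, and the 3 sets of spots do not overlap.

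MMP10, or stromelysin 2, cuts proteoglycans, laminin, and fibronectin and can activate procollagenases. Its probe (chr11:102641405-102641464) gave 159 in Ctrl, 375 in IMQ, and 303 in IMQ+DMD. The intensity was 2.36-fold higher after IMQ (log2 difference 1.24, noise SD 0.12), which was above that of 97.2% of all probes. It fell under 2-fold without normalization (0.77), with scaling to spike-in probes (0.60), and with normexp background correction (0.98), but it stayed above 0 in each. Between IMQ+DMD and IMQ the log2 difference was -0.30 (noise SD 0.094), and with spike-in scaling it was -0.0038. The IMQ+DMD array thus kept 75.4% of the log2 rise, with IMQ highest, Ctrl lowest, and IMQ+DMD nearer to IMQ. MMP10 was dim, and its spots were more uneven than 57.0% to 96.9% of the spots of like brightness.

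MMP7, or matrilysin, lacks the hemopexin domain of other MMPs and is best known from epithelium. Its probe (chr11:102394029-102394088) gave 1625 in Ctrl, 2127 in IMQ, and 2037 in IMQ+DMD. The log2 difference between IMQ and Ctrl was 0.39 (noise SD 0.067), but it turned to -0.17 with spike-in scaling. IMQ and IMQ+DMD differed by -0.06, less than the noise SD of 0.067, and by 0.05 with spike-in scaling. MMP12, the elastase of macrophages, was read at chr11:102733594-102733653 with 578 in Ctrl, 590 in IMQ, and 468 in IMQ+DMD. Ctrl and IMQ differed by 0.03, less than the noise SD of 0.075, and by -0.39 without normalization and -0.57 with spike-in scaling. IMQ+DMD was the lowest, at -0.33 (noise SD 0.085) from IMQ, and at -0.095 from it with spike-in scaling. The probes of MMP7, MMP10, MMP1, and MMP12 lie within 339.6 kb of chromosome 11, and MMP10 was the one of these 4 that was 2-fold higher after IMQ. Positions of MMP genes other than the members were not looked up. Among those genes MMP3, described further on, was also more than 2-fold higher (log2 difference 1.82).

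MMP2 and MMP9, the gelatinases A and B, cut denatured collagen and the collagen of basement membranes. The MMP2 probe (chr16:55540518-55540577) was dim, with 226 in Ctrl, 188 in IMQ, and 157 in IMQ+DMD. Neither step reached 2 noise SDs, with log2 differences of -0.26 from Ctrl to IMQ and -0.26 from IMQ to IMQ+DMD (noise SD 0.14 each), and the second turned to 0.16 with spike-in scaling. MMP2 was lower in IMQ+DMD than in Ctrl by 0.52 on the log2 scale, or 1.44-fold. MMP9 (chr20:44645121-44645180) gave 265157 in Ctrl, 287717 in IMQ, and 247884 in IMQ+DMD. These 3 values lay within 1.16-fold of each other, with a log2 difference of 0.12 from Ctrl to IMQ and -0.21 from IMQ to IMQ+DMD (noise SD 0.059 each), and the first turned to -0.16 with spike-in scaling. The MMP9 spot was not saturated on any array.

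MMP14 is the membrane-bound MT1-MMP, which cuts collagen at the cell surface and activates the proenzyme of MMP2. Its probe (chr14:23315791-23315850) gave 25700 in Ctrl, 30874 in IMQ, and 31661 in IMQ+DMD. The log2 difference between IMQ and Ctrl was 0.26 (noise SD 0.060) and turned to -0.06 without normalization and -0.24 with spike-in scaling. IMQ and IMQ+DMD differed by 0.04, which was less than the noise SD and changed sign between scalings.

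MMP19 cuts basement membrane proteins and was the member with the largest difference after IMQ. The brighter probe (chr12:56230436-56230495) gave 2045 in Ctrl, 8326 in IMQ, and 7199 in IMQ+DMD. The second probe (chr12:56229422-56229481) gave 407 in Ctrl, 1114 in IMQ, and 1132 in IMQ+DMD. Both probes thus put Ctrl lowest and the arrays with IMQ well above it. IMQ was 4.07-fold above Ctrl by the brighter probe (log2 difference 2.03, noise SD 0.065) and 2.74-fold by the second (1.45, noise SD 0.082), above 99.1% and 98.0% of all probes. The brighter probe stayed above 2-fold under every scaling tried, with a lowest log2 difference of 1.47 with spike-in scaling. For the second probe no values under the other scalings are given, so whether it stayed above 2-fold was not shown. The probes did not give the same order for IMQ and IMQ+DMD. The brighter probe was lower in IMQ+DMD than in IMQ by 0.21 on the log2 scale (noise SD 0.062), and the second probe was higher by 0.02, less than its noise SD of 0.069. Of the log2 rise after IMQ, 89.6% remained in IMQ+DMD by the brighter probe and 101.6% by the second.

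TIMP1 is a secreted inhibitor of most MMPs and binds the proenzyme of MMP9. Its probe (chrX:47444666-47444725) gave 50206 in Ctrl, 57553 in IMQ, and 58019 in IMQ+DMD. The log2 difference between IMQ and Ctrl was 0.20 (noise SD 0.055) and turned to -0.12 without normalization and -0.30 with spike-in scaling. IMQ and IMQ+DMD differed by 0.01, less than the noise SD, and this value also changed sign between scalings.

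TIMP3 binds to the extracellular matrix and inhibits ADAM17, the TNF-releasing protease, beside MMPs. Its probe (chr22:33258540-33258599) gave 1317 in Ctrl, 2964 in IMQ, and 1995 in IMQ+DMD. IMQ was highest and Ctrl lowest, and the place of IMQ+DMD between them depended on the scaling. The intensity was 2.25-fold higher after IMQ (log2 difference 1.17, noise SD 0.067), above that of 96.9% of all probes, and the log2 difference fell to 0.79 without normalization and to 0.61 when spike-in probes set the scale. IMQ+DMD was lower than IMQ by 0.57 on the log2 scale (noise SD 0.067), and 6.29% of all probes had a lower value in this comparison. This difference kept its sign under every scaling, from -0.75 to -0.47. The IMQ+DMD array kept 51.2% of the log2 rise as reported, 52.6% with own quantile normalization, and 56.1% with normexp correction. It kept 39.6% with scaling to the 75th percentile, 24.0% with spike-in scaling, and 13.5% without normalization, which put it closer to Ctrl than to IMQ in these 3. The TIMP3 spot was more uneven than 95.7% to 97.6% of the spots of like brightness on the 3 arrays, and the part of this unevenness in its values was not tested.

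Among 23 other MMPs and MMP inhibitors, 6 MMPs (MMP13, MMP16, MMP20, MMP24, MMP26, and MMP27) were not well above background on any array. Of the 16 genes compared between IMQ and Ctrl, 2 were at least 2-fold higher and none was at least 2-fold lower, where 4.31% and 3.48% of all probes were. The median log2 difference was -0.16, and it was -0.57 with 2 genes of 17 at least 2-fold lower without normalization and -0.75 with 3 of 17 lower with spike-in scaling, where 15.6% and 24.9% of all probes were lower by that factor. SPOCK2, a matrix proteoglycan, was not counted as higher because its brighter probe gave -0.17, whereas its second probe gave 1.49. TFPI2, a Kunitz-type inhibitor of plasmin and other serine proteases of the matrix, gave 936 in Ctrl, 8508 in IMQ, and 5785 in IMQ+DMD. Its log2 difference was 3.18 from Ctrl to IMQ and -0.56 from IMQ to IMQ+DMD. MMP3 (stromelysin 1), which is closely related to MMP10, gave 132 in Ctrl, 467 in IMQ, and 268 in IMQ+DMD, with log2 differences of 1.82 and -0.80. For both genes the IMQ+DMD value lay between those of Ctrl and IMQ. RECK, a membrane-anchored inhibitor of MMPs, was lower after IMQ by 0.81 on the log2 scale, and TIMP2 by 0.29. A2M, a plasma inhibitor of many proteases and the brightest of the list, gave 103817, 98677, and 88131 in the order of Ctrl, IMQ, and IMQ+DMD. In IMQ+DMD against IMQ, none of 17 genes compared reached 2-fold, where 1.09% of all probes were higher and 1.31% lower by that factor, and the median was -0.03 but 0.18 with spike-in scaling. Under each of the 6 ways of scaling and background correction, TFPI2 and MMP3 stayed more than 2-fold higher in IMQ than in Ctrl and lower in IMQ+DMD than in IMQ.

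Of 17 genes compared that activate, dock, or clear MMPs, 8 were at least 2-fold higher after IMQ and 1 was at least 2-fold lower, where 4.31% and 3.48% of all probes were, and the median log2 difference was 0.57 but -0.0055 with spike-in scaling. They included the urokinase PLAU, which makes plasmin (log2 difference 2.40, second probe 2.71), its receptor PLAUR (1.44), and the urokinase inhibitors SERPINE2 (2.56) and SERPINB2, which was not well above background in Ctrl (a log2 difference of at least 2.14, or 0.80 with normexp correction). The integrin chains ITGB3 (2.51) and ITGAV (1.04) and the matricellular THBS1 (1.57) were also higher. ITGAV was past 2-fold in 4 of the 6 scalings (lowest 0.51) and PLAUR in 5 of them (lowest 0.93). CD44, a surface receptor that docks MMP9, was 2.82-fold higher, but its second probe gave a log2 difference of -0.11. THBS2, which clears MMP2 from the pericellular space, was lower (-2.07, second probe -1.17). In IMQ+DMD against IMQ, none of the 17 genes reached 2-fold (1.09% of all probes were higher and 1.31% lower by that factor), 13 were lower (7 with spike-in scaling), and the median was -0.12 (0.05 with spike-in scaling). PLAU gave 6755 in Ctrl, 35710 in IMQ, and 27153 in IMQ+DMD. Of 15 ADAM and ADAMTS metalloproteinases, none was at least 2-fold higher after IMQ and 1 was at least 2-fold lower, where 4.31% and 3.48% of all probes were. This was ADAMTS1, which cuts aggrecan and versican (-1.86, second probe -2.15), and it was lower again in IMQ+DMD than in IMQ (-0.82 and -0.81). The median of this list was -0.15 from Ctrl to IMQ and -0.24 from IMQ to IMQ+DMD. With spike-in scaling these medians were -0.88 and 0.08, and 6 of the 15 genes were at least 2-fold lower in IMQ than in Ctrl, against 1 as reported and 3 without normalization. Of all probes, 24.9% were lower by that factor with spike-in scaling and 15.6% without normalization.

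**Figure D4:**
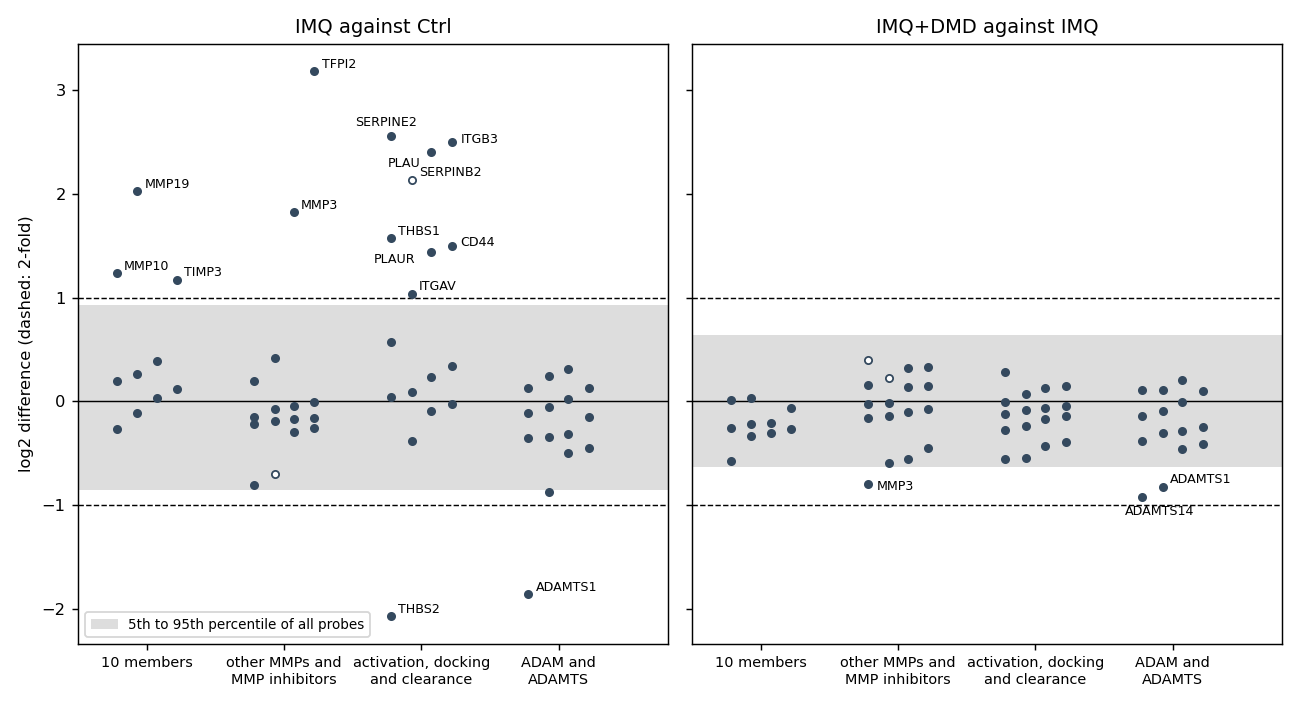
Log2 difference between single arrays for the 10 genes and 3 lists of related genes, with 1 point per gene, open points for bounds against the background floor, dashed lines at 2-fold, and a gray band from the 5th to the 95th percentile of all probes. TFPI2 at 3.18 is the highest point in IMQ against Ctrl, and no gene reaches 2-fold in IMQ+DMD against IMQ.

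For the 3 members past 2-fold, the genes of most similar pattern were found by the distance between pairs of log2 differences (IMQ against Ctrl, and IMQ+DMD against IMQ) over the 3 arrays, among 17026 genes with a symbol and well above background on all of them. MMP19 was closest to AMPD3 (2.01 and -0.23), TPRA1 (1.98 and -0.23), and MPZL1 (2.10 and -0.17), and 4 genes lay within its noise. TIMP3 was closest to WNT1 (1.18 and -0.59), KRTCAP3 (1.19 and -0.54), and CXCL14 (1.18 and -0.63), with 9 genes within its noise. MMP10 was closest to CD80 (1.25 and -0.31), ATP2B1 (1.24 and -0.32), and TMEM88 (1.22 and -0.31), with 52 genes within its noise, so the 3 named are not set apart from the rest of the 52.

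Of the 270 log2 differences of the 10 genes under the alternatives, 248 kept the sign of the reported value and 22 had the opposite sign, and all 22 belonged to differences smaller than 2-fold. Part of the 270 could not differ from the reported value, which raises the count of 248. All member probes were well above background, so the filters on dim probes changed none of them. Another choice of probe could change MMP19 alone, the gene with 2 probes. MMP19, MMP10, and TIMP3 stayed higher in IMQ than in Ctrl under each alternative. The other 5 genes that were higher as reported (MMP7, MMP9, MMP12, MMP14, and TIMP1) turned lower with spike-in scaling, and MMP12, MMP14, and TIMP1 also without normalization.

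**Figure D5:**
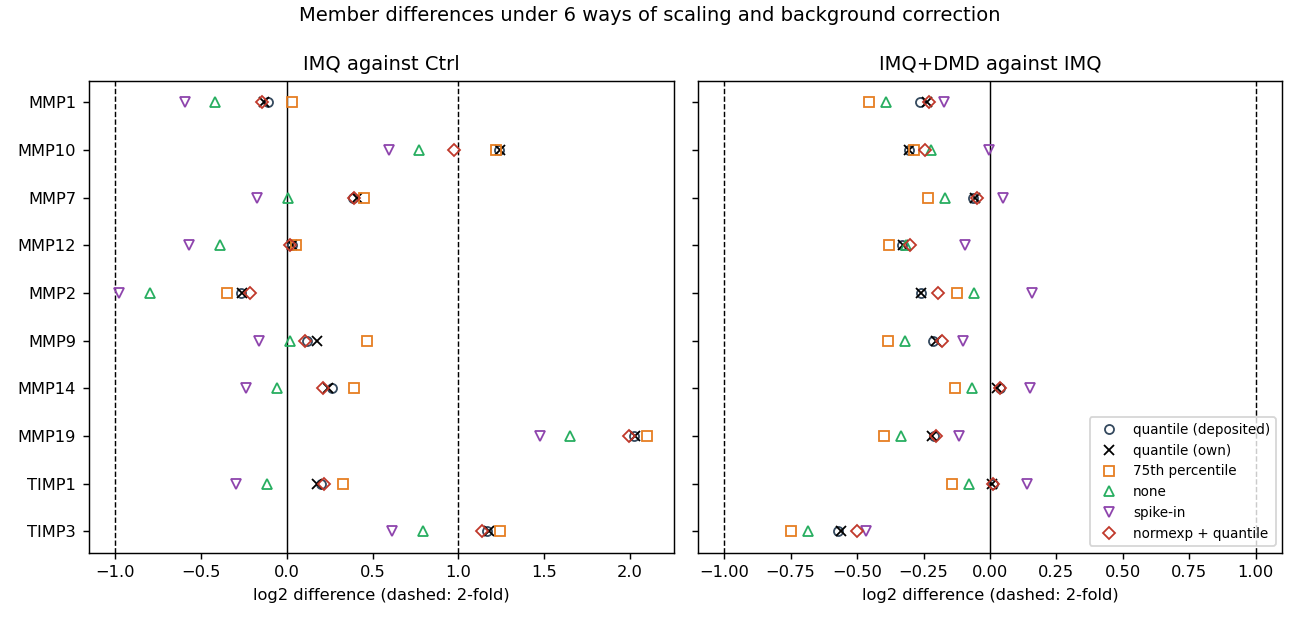
Log2 difference of each gene (representative probe) under 6 ways of scaling and background correction in 2 comparisons (IMQ against Ctrl at left, IMQ+DMD against IMQ at right), with dashed lines at 2-fold. MMP19 lies beyond 2-fold in all 6 (1.47 to 2.10), MMP10 in 3 of them (0.60 to 1.24), and MMP14 and TIMP1 lie on both sides of 0.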

How the data were processed

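Per the file headers, the deposited scanner files of the 3 one-color arrays were made with Feature Extraction 10.5.1.1, and a table for the series holds intensity before and after quantile normalization by the authors. The deposited normalized intensity on the linear scale was used as it was and converted to log2. The tool the authors used for that step is not given in the sources used here. In that table, 3 columns of detection calls were not used. Microarray precision is limited by the number of arrays, 1 per condition, and no test was made.

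For genes with several probes, the one with the highest mean log2 value represented the gene. A value not well above background was raised to the lowest value among probes that were, and a fold against it is a bound. A gene counted as changed at 2-fold or more. All 10 genes, every gene of the 5 lists of related genes past 2-fold in IMQ against Ctrl or in IMQ+DMD against IMQ, up to 4 of the brightest others per list, and the 3 closest genes per changed member were to be named. RECK, SPOCK2, and the promoters shown were named beyond that rule, after their values were seen. Members and lists were chosen with earlier results of these data known.

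Alternatives were scaling to the 75th percentile, none, or 8 spike-in probes, normexp (offset 50), own quantile normalization, filters on dim probes, thresholds of 1.5-fold and 4-fold, and other representative probes. Python 3.11.15, numpy 2.4.6, pandas 2.3.3, matplotlib 3.10.9, R 4.3.3, and limma 3.58.1 were used. Scripts were tested on simulated data. Promoters were from RefSeq (GRCh38.p14). The positions of probes are those of the scanner files (hg19), and exon or UTR was not assigned.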

Additional observations from a re-analysis of the deposited data

How the results depend on the processing

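No paired analysis was possible because each condition had 1 array, and no array could be left out for the same reason. Of the 270 member differences under the alternatives, 183 moved by no more than 1 noise SD and 87 moved by more. The 183 include the values that the filters on dim probes and the other probe choices could not change. The number of genes at least 2-fold higher in IMQ than in Ctrl was 3 as reported and 1 without normalization between arrays, 1 with spike-in scaling, and 1 at 4-fold, where MMP19 was the remaining gene in each, and 2 with normexp correction. In IMQ+DMD against Ctrl it was 1 as reported, where 3.09% of all probes were at least 2-fold higher, 3 at 1.5-fold, and 0 at 4-fold. No share of all probes is given for 1.5-fold or 4-fold, so the counts at these thresholds cannot be set against one. The median over the 10 genes for IMQ against Ctrl was 0.23 as reported, 0.42 with scaling to the 75th percentile, -0.026 without normalization, and -0.20 when scaled to spike-in probes. From IMQ to IMQ+DMD it was -0.24 as reported, -0.33 with the 75th percentile, and -0.050 with spike-in probes. For IMQ+DMD against Ctrl it was 0.25 as reported, -0.18 without normalization, and -0.14 with spike-in probes. The share of all probes called also moved, since 1.34% were higher and 24.9% lower in IMQ than in Ctrl with spike-in scaling, against 4.31% and 3.48% as reported. These shares were 1.71% and 15.6% without normalization, and 1.73% and 1.70% with normexp correction. With normexp correction, 24 probes were higher and 40 lower in IMQ+DMD than in IMQ, against 447 and 535. Applying these scalings to the lists of related genes and to the remaining rise was decided after the data had been seen. The cause of these shifts was not tested. MMP2 and MMP10 were the dimmest members and carried the widest noise (0.14 and 0.12 on the log2 scale).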

Other observations

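Of 17 genes for matrix proteins and other MMP substrates, 14 were compared. None was higher or lower by at least 2-fold in IMQ against Ctrl or in IMQ+DMD against IMQ, and few of all probes were either (4.31% higher and 3.48% lower in the first, 1.09% and 1.31% in the second). The median log2 differences were -0.07 and -0.13, although with spike-in scaling 3 genes, and 24.9% of all probes, were lower by 2-fold in IMQ than in Ctrl and the second median then turned to 0.15. SPP1 (osteopontin), an adhesive protein cut by MMPs, gave 291637 in Ctrl, 224302 in IMQ, and 223150 in IMQ+DMD. COL4A2, a collagen of basement membranes, gave 7964, 9245, and 9070 in the same order. COL1A2, COL3A1, and FBN1 were not well above background on any array.

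Of 9 genes for cysteine, aspartic, and serine proteases, none reached 2-fold in IMQ against Ctrl by its representative probe, where 4.31% of all probes were higher and 3.48% lower by that factor. With scaling to the 75th percentile 1 gene (CTSL) did (1.11), where 3.61% of all probes were higher and 4.57% lower by that factor. The median of this list was 0.12, and it turned to -0.26 without normalization and -0.44 with spike-in scaling. The lysosomal cathepsin CTSL was the nearest as reported, with 61774 in Ctrl, 117980 in IMQ, and 117673 in IMQ+DMD, a log2 difference of 0.93 between IMQ and Ctrl, and 1.26 by its second probe. CTSB, another lysosomal cathepsin, gave 11568, 18288, and 17130 in the same order, a log2 difference of 0.66 between IMQ and Ctrl. CTSD gave 21571 in Ctrl and 19455 in IMQ, a log2 difference of -0.15, and it differed by 0.006 between IMQ+DMD and IMQ. CTSZ gave 4370 in Ctrl, 3954 in IMQ, and 10216 in IMQ+DMD, a log2 difference of 1.37 between IMQ+DMD and IMQ, whereas its second probe gave 0.04. It was the 1 gene of the 9 past 2-fold in this comparison, where 1.09% of all probes were at least 2-fold higher. The 7 housekeeping genes differed by -0.53 to 0.32 between IMQ and Ctrl and by -0.09 to 0.09 between IMQ+DMD and IMQ.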
